A study of Mus musculus with 228 samples.

Results

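The mitochondrial genome of the mouse carries 37 genes, and each of them had a row of its own among the 46331 genes of the deposited table. They were picked by gene name alone: 13 genes for proteins of the respiratory chain and ATP synthase, 2 for ribosomal RNAs (mt-Rnr1 and mt-Rnr2) and 22 for transfer RNAs (written Trn with the letter of the amino acid). Their counts were followed through 10 tissues of inbred C57BL/6N mice, which were 10 weeks old, housed singly and kept for 42 days with LED light of 150 to 200 lx. Antibiotics mice (ABX) drank water with an antibiotic cocktail, and chow mice (CD) received none. Within each diet the mice lived under 5 cycles, named by their hours of light and of dark: LD0/24 (always dark), LD8/16, LD12/12, LD16/8 and LD24/0 (always lit). Liver, hypothalamus and colon came from both diets. Only chow mice gave inguinal white fat, ileum, jejunum, cecum, spleen, thymus and mammary gland, and the labels call the gut tissues epithelium.

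Of 228 libraries, 224 were used: 29 ABX and 30 CD livers (up to 6 for each cycle), 15 ABX and 15 CD libraries of hypothalamus and of colon (3 for each cycle), and 15 CD libraries in each of the other 7 tissues. Left out were 3 cecum columns with identical values under different cycles and 1 ABX liver library, LD0/24 replicate 1, with 0 counts in all 37 genes. Median library totals ran from 36.1 M counts (M, mega) in mammary gland to 96.0 M in cecum, with single libraries as low as 7.20 M in mammary gland and 8.92 M in colon. Defining markers fitted the labels of most tissues, such as Alb in liver, Pmch and Avp in hypothalamus, Adipoq in fat, Csn2 and Wap in mammary gland and Rag1 in thymus. Colon, labelled epithelium, also held smooth muscle genes. The medians of Des, Actg2 and Myh11 there lay above those of the epithelial genes Epcam and Vil1 and below that of Car1. One library went against its label: inguinal fat LD16/8 replicate 1 held milk and mammary epithelium genes at a sum of 288542 counts per megacount of nuclear genes (CPM) and white fat genes at 1178. A hypothalamus library that held liver markers is named below.

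Mitochondrial DNA is transcribed from both strands as long precursors. The tRNAs lie between most of the rRNA and protein genes, and cutting them out of the precursor releases the other RNAs. One precursor, from the heavy-strand promoters, holds both rRNAs, 12 of the protein messages and 14 of the tRNAs. The other, from the light-strand promoter, holds 9 members: the message of ND6, a subunit of complex I, and the 8 tRNAs TrnQ, TrnA, TrnN, TrnC, TrnY, TrnS1, TrnE and TrnP.

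The tRNAs below are among those called in a diet or cycle comparison, and TrnS1 and TrnE took the largest shares of tRNA counts in all 10 tissues (medians). They are shown 5′ to 3′ as in the GENCODE annotation of the GRCm38 reference, matched by gene name, and capitals mark the anticodon. The first 6 belong to the heavy-strand precursor and read the codons of glycine, arginine, histidine, serine, leucine and lysine. TrnG and TrnR lie on either side of ND3, and TrnH, TrnS2 and TrnL2 follow each other between ND4 and ND5. TrnS2, with 59 bases the shortest, is the serine tRNA that lacks a D arm.
TrnG: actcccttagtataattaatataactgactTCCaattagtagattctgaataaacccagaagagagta
TrnR: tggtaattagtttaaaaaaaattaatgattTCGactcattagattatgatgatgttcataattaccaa
TrnH: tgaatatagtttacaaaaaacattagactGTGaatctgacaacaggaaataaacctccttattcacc
TrnS2: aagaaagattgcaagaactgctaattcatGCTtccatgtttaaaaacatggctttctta
TrnL2: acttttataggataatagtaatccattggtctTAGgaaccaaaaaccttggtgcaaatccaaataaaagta
TrnK: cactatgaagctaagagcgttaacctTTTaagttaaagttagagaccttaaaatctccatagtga
The next 6 belong to the light-strand precursor and read the codons of alanine, asparagine, cysteine, tyrosine, serine and glutamate. TrnA, TrnN, TrnC and TrnY sit side by side between ND2 and COX1, TrnS1 lies at the far end of COX1, and TrnE lies beside ND6.
TrnA: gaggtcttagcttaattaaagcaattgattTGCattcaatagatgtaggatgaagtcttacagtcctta
TrnN: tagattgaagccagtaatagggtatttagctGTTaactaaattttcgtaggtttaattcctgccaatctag
TrnC: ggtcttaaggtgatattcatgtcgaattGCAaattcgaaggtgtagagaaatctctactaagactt
TrnY: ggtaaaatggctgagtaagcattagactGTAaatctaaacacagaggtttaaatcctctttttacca
TrnS1: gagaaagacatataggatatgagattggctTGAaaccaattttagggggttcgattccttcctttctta
TrnE: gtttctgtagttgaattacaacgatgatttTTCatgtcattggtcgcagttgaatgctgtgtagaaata

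The share of all counts that fell on the 37 genes differed widely between tissues. It was lowest in thymus (median 3.46%, range 2.79 to 9.10%) and spleen (4.95%, 2.12 to 55.2%), followed by liver (5.67%, 2.96 to 62.6%) and hypothalamus (7.08%, 4.62 to 18.9%). Ileum (10.4%), inguinal fat (11.8%), jejunum (13.5%) and cecum (16.2%) lay in between. Colon, with a median of 50.8% (23.1 to 71.8%), and mammary gland, with 86.4% (7.73 to 95.1%), gave most of their counts to mitochondrial genes. The ranges of neighbouring tissues in this order overlapped, and so did those of the highest and the lowest, since the lowest mammary gland library fell within the range of thymus. In these bulk samples, fewer cells of a type and less RNA per cell cannot be told apart.

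**Figure D1:**
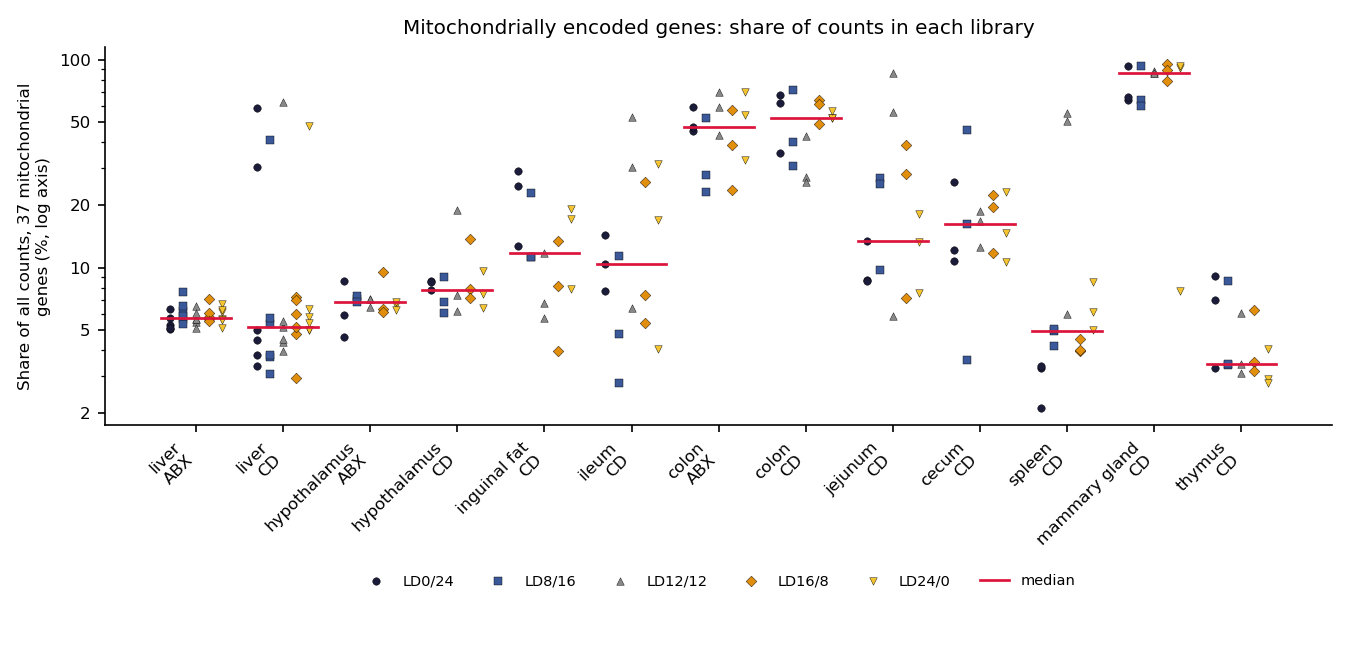
Share of all counts taken by the 37 mitochondrial genes (%, log axis) in each of 224 libraries, by tissue and diet, with the cycle as colour and symbol and the median of a set as a red line. Liver ABX libraries sit between 5.08% and 7.62%, while 5 liver CD libraries stand between 30.4% and 62.6%, far above the others.

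In all, 16 libraries stood apart from their tissue, by a share above 3 times or below 1/3 of the tissue's median or by fewer than 5000 nuclear genes at 1 CPM, limits that were set with the shares in view. Chow livers held 5 of them: LD0/24 replicate 1 (30.4%) and replicate 4 (58.3%), LD8/16 replicate 3 (40.9%), LD12/12 replicate 2 (62.6%) and LD24/0 replicate 5 (48.2%). Spleen held 2, LD12/12 replicates 2 and 3, with 55.2% and 50.9% against 5.98% in replicate 1. Jejunum LD12/12 spanned 86.4%, 55.8% and 5.86% in its 3 libraries. The rest were 3 libraries of ileum, 2 of mammary gland, 1 of cecum and 1 of colon, the last being ABX LD8/16 replicate 1 with 3960 nuclear genes at 1 CPM.

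For most protein genes, the share of the mitochondrial counts spread less between libraries than the sum of the 37 genes did. Within groups of one tissue, diet and cycle, the share of all counts had a standard deviation of 0.39 (hypothalamus) to 1.22 (ileum) on the log2 scale. A protein gene's share of the mitochondrial counts had one of only 0.08 (thymus) to 0.27 (mammary gland), taken as the median over the 13 genes. Of the 13 protein genes, both rRNAs and TrnS1, some spread more than the sum: ND4L (0.58), mt-Rnr2 (0.57) and ND5 (0.56) in colon, where the sum had 0.46, TrnS1 in hypothalamus, mt-Rnr1 in inguinal fat and ND4L in mammary gland. These are spreads between libraries and carry no test. In colon they include ABX LD8/16 replicate 1, with mt-Rnr2 at 34.8% of mitochondrial counts. ND5 was at 0.391%, 2.35% and 2.93% (lowest, median, highest) in that group. The 0 counts of mt-Rnr1 in that library have no log2 value, so the colon spread of mt-Rnr1 leaves it out.

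COX1, the catalytic core of complex IV, took the largest part everywhere, with a median share of mitochondrial counts from 28.5% in hypothalamus to 49.5% in cecum. Levels can be compared between genes only per length, so shares are given here per kilobase (kb) of gene. On that scale COX1 led the 13 protein genes in 223 of 224 libraries, with tissue medians from 18.5% per kb in hypothalamus to 32.1% per kb in cecum. The lowest place went to ND6 in 146 libraries, to ND4L in 58 and to ND3 in 16, all of which encode complex I subunits. COX1 stood at a median of 18.5 times ND6 per kb over all libraries (5.28 to 69.2), with 32.3 times in liver, 31.2 in cecum and 10.9 in hypothalamus.

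In liver, the order per kb after COX1 (24.3%) was CYTB (10.0%), the core of complex III, then COX2 (9.85%) and COX3 (8.95%) of complex IV, ATP6 (8.90%) of ATP synthase and ND1 (8.09%) of complex I. Neighbouring places from CYTB to ND1 lay close together. Below them came the complex I genes ND4 (5.62%) and ND2 (4.85%), ATP8 (3.85%), ND3 (3.02%), ND4L (2.94%), ND5 (2.23%) and ND6 (0.758%). ATP8 and ATP6 share 43 bases of 1 message, and ND4L and ND4 share 7, so counts in those stretches cannot be placed with one gene alone.

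Some members kept nearly the same place in every tissue and others did not. Between the lowest and the highest tissue median per kb, COX2 differed 1.40-fold, ATP8 and COX3 1.5-fold, ATP6 1.55-fold, ND1 1.63-fold, COX1 1.74-fold, ND5 1.88-fold and CYTB 1.93-fold. The complex I genes ND4 (2.50-fold), ND4L (2.58-fold), ND6 (2.85-fold), ND3 (2.94-fold) and ND2 (4.24-fold) varied more. ND2 was at 4.85% per kb in liver and 1.14% in cecum, and ND4 was at 7.08% per kb in inguinal fat and 2.83% in cecum. ND6, the only protein gene of the light-strand precursor, was at 0.329 times its neighbour ND5 per kb in liver, against 0.638 to 1.07 times in the medians of the other tissues.

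**Figure D2:**
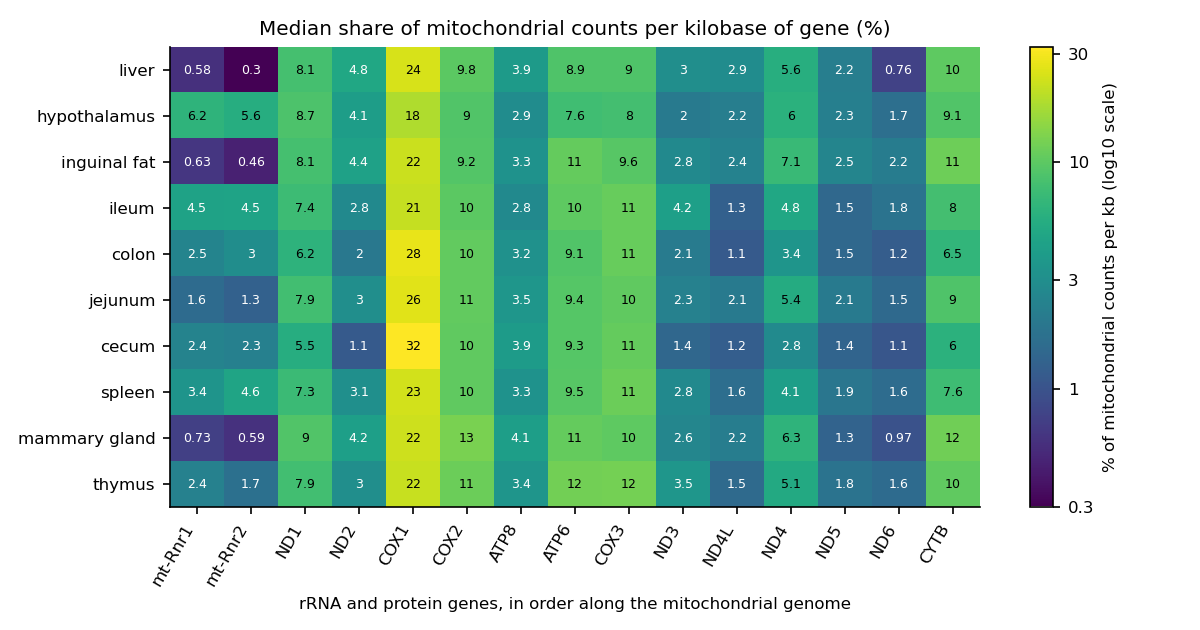
Median share of mitochondrial counts per kilobase (%, colour on a log10 scale) for the 2 rRNA and 13 protein genes, in genome order, in each of 10 tissues. COX1 is the brightest column in all tissues, and the 2 rRNA columns run from 0.303% per kb (mt-Rnr2 in liver) to 6.24% (mt-Rnr1 in hypothalamus).

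The rRNAs, which form the cores of the small and large mitochondrial ribosome subunits, varied more than any protein gene: 10.8-fold for mt-Rnr1 and 18.3-fold for mt-Rnr2. Liver was lowest, at 0.578% per kb for mt-Rnr1 and 0.303% for mt-Rnr2, and hypothalamus highest, at 6.24% and 5.55%. Set against the protein genes of the same library, the rRNA counts came to 1.06% in liver, 1.33% in inguinal fat, 1.68% in mammary gland, 3.67% in jejunum and 5.25% in thymus (medians). The order went on with cecum at 6.26%, colon at 7.88%, spleen at 11.6%, ileum at 12.5% and hypothalamus at 17.4%. The libraries were made with a kit for messenger RNA, so these values describe rRNA as captured by that kit.

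Summed over the tRNA rows, the light-strand precursor stood above the heavy-strand precursor. The 8 light-strand tRNAs together took 0.278% (mammary gland) to 0.943% (ileum) of the mitochondrial counts, and the 14 heavy-strand tRNAs took 0.0213% to 0.126% (tissue medians). The median ratio of these sums was 9.95 over all libraries (2.74 to 74.6), with tissue medians from 4.2 in hypothalamus to 21.6 in colon. TrnS1 made up 34.0% (hypothalamus) to 73.0% (mammary gland) of all tRNA counts, and without it the ratio still had a median of 3.49 (1.15 to 20.7). The rows of the 2 precursors overlapped: 5 to 7 of the 8 light-strand tRNAs lay above all 14 heavy-strand ones in 7 tissues, but only 3 in mammary gland and 2 in jejunum and in cecum (medians). TrnQ was the lowest light-strand tRNA and TrnL1, a leucine tRNA behind mt-Rnr2, the highest heavy-strand tRNA in all 10 tissues. The sources used here do not give whether the libraries keep strand, and TrnS1 lies opposite the end of the COX1 precursor. Reads of a gene and of the precursor on the opposite strand can then not be separated. The tRNA rows are 59 to 75 bases long and, like the rRNAs, describe what the messenger RNA kit captured. Cut tRNAs and uncut precursors cannot be told apart in them, here and in all comparisons below.

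**Figure D3:**
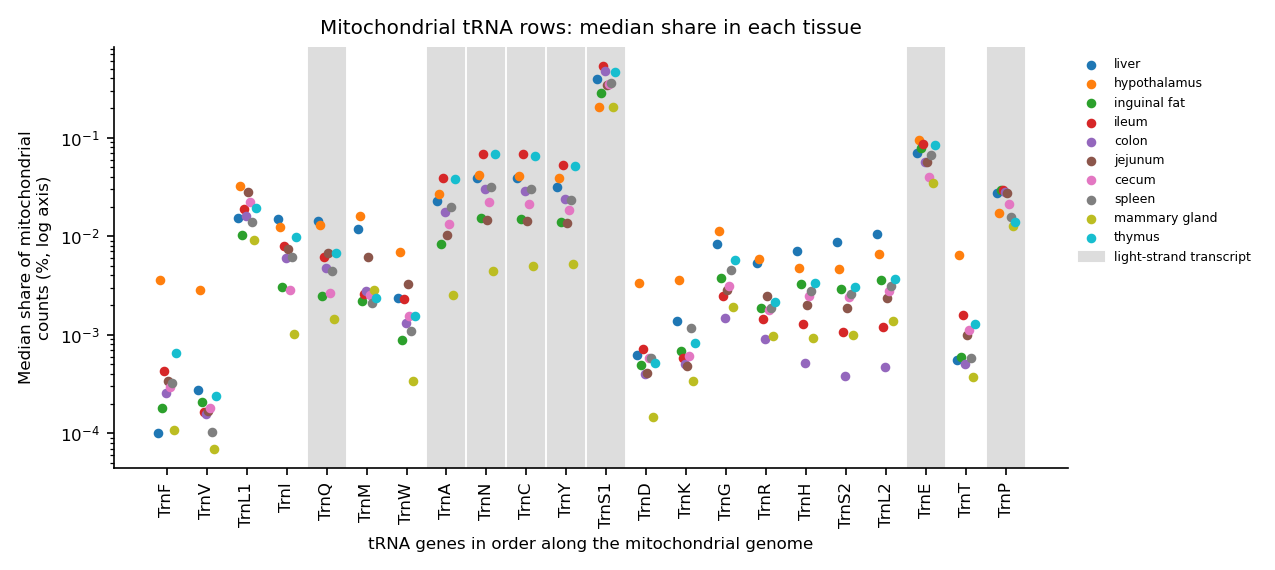
Median share of mitochondrial counts (%, log axis) of the 22 tRNA rows in genome order, 1 point for each of 10 tissues, with light-strand tRNAs on grey. TrnS1 lies highest in every tissue, and the hypothalamus points of TrnF and TrnV, the tRNAs on either side of mt-Rnr1, lie far above those of the other tissues.

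TrnF and TrnV, on either side of mt-Rnr1, had the widest range of all members. TrnF differed 34.9-fold per kb between liver and hypothalamus, and TrnV 40.6-fold between mammary gland and hypothalamus. Counts were low there: TrnF was at 0 in 3 libraries and TrnV in 7, and TrnQ in 3. The other members at 0 anywhere were mt-Rnr1, TrnK, TrnR, TrnH and TrnS2, each in 1 library. BLAST found 7 near-identical copies of members in the nuclear chromosomes of the reference, and 0 of them had a row in the table. Reads of such copies and of the mitochondrial genes cannot be told apart.

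The first tested comparison was ABX against CD in liver, at the level of each gene, meaning CPM scaled by TMM to the whole library and fitted over all genes by edgeR's quasi-likelihood test with Benjamini-Hochberg adjustment. Of the 37 genes, 31 were called lower in ABX livers and 0 higher, with a median log2 fold change of -1.53. Over all 19234 genes tested, 33.2% were called, 18.4% lower and 14.8% higher, and the median fold change was -0.00. Lower were all 13 protein genes (-1.80 to -0.93), both rRNAs, all 8 light-strand tRNAs (median -2.29) and 8 of 14 heavy-strand tRNAs.

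These level calls rested on the 5 chow livers with high shares. COX1 was at 16275 CPM (lowest), 19609 (median) and 27565 (highest) in 29 ABX livers, against 9983, 20001 and 493792 in 30 CD livers. Without those 5 libraries the CD values ran from 9983 over 19303 to 30265, so for COX1 the groups overlapped almost entirely. The share of all counts on mitochondrial genes still differed in its middle. It was 5.08%, 5.71% and 7.62% (lowest, median, highest) in ABX livers and 2.96%, 5.02% and 7.22% in the other 25 CD livers. All 29 ABX livers lay above the median of these 25, though the ranges overlapped, and this share carries no test. The log2 fold change of COX1 was -1.58 ± 0.34 (SE, adjusted p = 0.000247) with the 5 high libraries, by edgeR, and 0.04 (adjusted p = 0.739) without them. Without them 21 members were called, 16 higher and 5 lower, with a median of 0.18. Over all 19296 genes tested without them, 20.7% were called higher and 17.4% lower. Of the 36 members tested both ways, 16 were called both times, 11 of these with opposite signs. Red blood cell genes summed to between 987.2 and 5425.9 CPM in the 5 libraries, 324.0 to 1205.1 CPM in ABX livers and 499.7 to 4601.1 CPM in the other CD livers. The part of blood in the result was not tested.

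The other named members showed the same dependence. CYTB was at 5165, 7107 and 10858 CPM (lowest, median, highest) in ABX livers and at 3086, 5621 and 142409 in CD livers, with a fold change of -1.24 ± 0.35 (adjusted p = 0.00445, edgeR) with all libraries and 0.46 without the 5. ND6 was at 143.8, 246.5 and 508.1 CPM in ABX livers and 79.3, 167.3 and 3719 in CD livers, with fold changes of -0.93 ± 0.35 (adjusted p = 0.0336) and 0.71. For both genes the ABX median lay above the CD median although the fitted fold change with all libraries was negative. For TrnA (-2.60 ± 0.40, adjusted p = 9.27e-07) and mt-Rnr1 (-2.59 ± 0.43, adjusted p = 4.9e-06) the sign stayed negative without the 5 libraries, at -0.72 and -0.44.

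The balance was then tested by taking the summed counts of the 37 genes as the library size. A fold change then says how a gene's share of that sum moved. The sum includes the gene itself, so for COX1, its largest part, the fold change understates the movement against the other genes. A change in COX1 also moves the shares of the others. This fit covered all genes, so the SE of a member also draws on the spread of nuclear genes on this scale. A member that was not called is therefore not shown to be unchanged. The adjustment also ran over all genes, so many nuclear calls loosen the limit at which a member is called. Background shares in balance mostly describe nuclear genes moving against the mitochondrial sum. On this scale the median gene of the whole table moved by 0.17 in liver, 0.39 in hypothalamus and 0.13 in colon (log2). In liver 14 members were called, 8 higher and 6 lower in ABX, against a background of 12.7% of genes called (10.4% higher, 2.25% lower). All 14 were called in the same direction without the 5 high CD livers, when 26 members were called in all (16 higher, 10 lower). The share of all genes called in balance without these livers is not given here. Without the filter on low counts, 4 were called, all lower.

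Higher in ABX livers relative to the summed mitochondrial counts were TrnG, TrnR, TrnH, TrnS2 and TrnL2 of the heavy-strand precursor, printed above, with TrnV. TrnE and ND6 of the light-strand precursor, which are neighbours, were higher too. TrnG took 0.00660%, 0.00975% and 0.0134% of mitochondrial counts (lowest, median, highest) in ABX livers and 0.00267%, 0.00612% and 0.0103% in CD livers. All 29 ABX livers lay above the CD mean of their cycle and 11 above every CD liver. The log2 fold change was 0.73 ± 0.16 (SE; adjusted p = 0.000896, edgeR), and 0.78 without the 5 libraries.

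TrnL2 (0.72 ± 0.16, adjusted p = 0.0013, edgeR) and TrnS2 (0.72 ± 0.16, adjusted p = 0.00139) moved by as much, in 28 and 29 of 29 ABX livers. TrnE, the tRNA of glutamate, took 0.0543%, 0.0810% and 0.125% in ABX livers and 0.0298%, 0.0519% and 0.0853% in CD livers, again with all 29 above the CD mean of their cycle (0.69 ± 0.16, adjusted p = 0.00191, edgeR). ND6 took 0.290%, 0.488% and 0.838% in ABX livers and 0.224%, 0.321% and 0.747% in CD livers. It was above the CD mean in 26 of 29 ABX livers (0.55 ± 0.17, adjusted p = 0.0218, edgeR). The groups overlapped for each of these genes.

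Lower in ABX livers were the 4 side-by-side light-strand tRNAs TrnA, TrnN, TrnC and TrnY, with TrnI, the tRNA of isoleucine, and mt-Rnr1. TrnA took 0.00853%, 0.0164% and 0.0278% (lowest, median, highest) in ABX livers and 0.0117%, 0.0342% and 0.0604% in CD livers, with 28 of 29 ABX livers below the CD mean (-0.95 ± 0.17, adjusted p = 5.25e-05, edgeR). TrnN took 0.0151%, 0.0282% and 0.0464% in ABX livers and 0.0201%, 0.0594% and 0.0997% in CD livers (-0.92 ± 0.17, adjusted p = 9.92e-05, edgeR). Rows of light-strand members therefore moved both ways: TrnE and ND6 up, TrnA, TrnN, TrnC and TrnY down. Reads of the opposite precursor cannot be separated from these rows.

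mt-Rnr1 took 0.306%, 0.445% and 0.656% of mitochondrial counts in ABX livers and 0.335%, 0.748% and 1.88% in CD livers, with 27 of 29 ABX livers below the CD mean of their cycle (-0.74 ± 0.18, adjusted p = 0.00295, edgeR). mt-Rnr2, at -0.31 ± 0.19, was not called (adjusted p = 0.328). Among the messages, COX1 took 34.9%, 36.5% and 42.3% in ABX livers and 34.8%, 39.4% and 47.4% in CD livers. Its fold change of -0.12 ± 0.16 was not called (adjusted p = 0.786, edgeR) with all libraries and was called at -0.14 (adjusted p = 0.00634) without the 5 high CD livers. Within groups, the COX1 share in liver had a standard deviation of 0.089 on the log2 scale. CYTB, at 0.29 ± 0.16 (adjusted p = 0.254) with all libraries, was called at 0.30 (adjusted p = 1.6e-06) without them, and ND4 (0.14 ± 0.16, adjusted p = 0.691) was called at 0.17. ATP8, at 0.06 ± 0.16, was not called with all libraries.

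**Figure D4:**
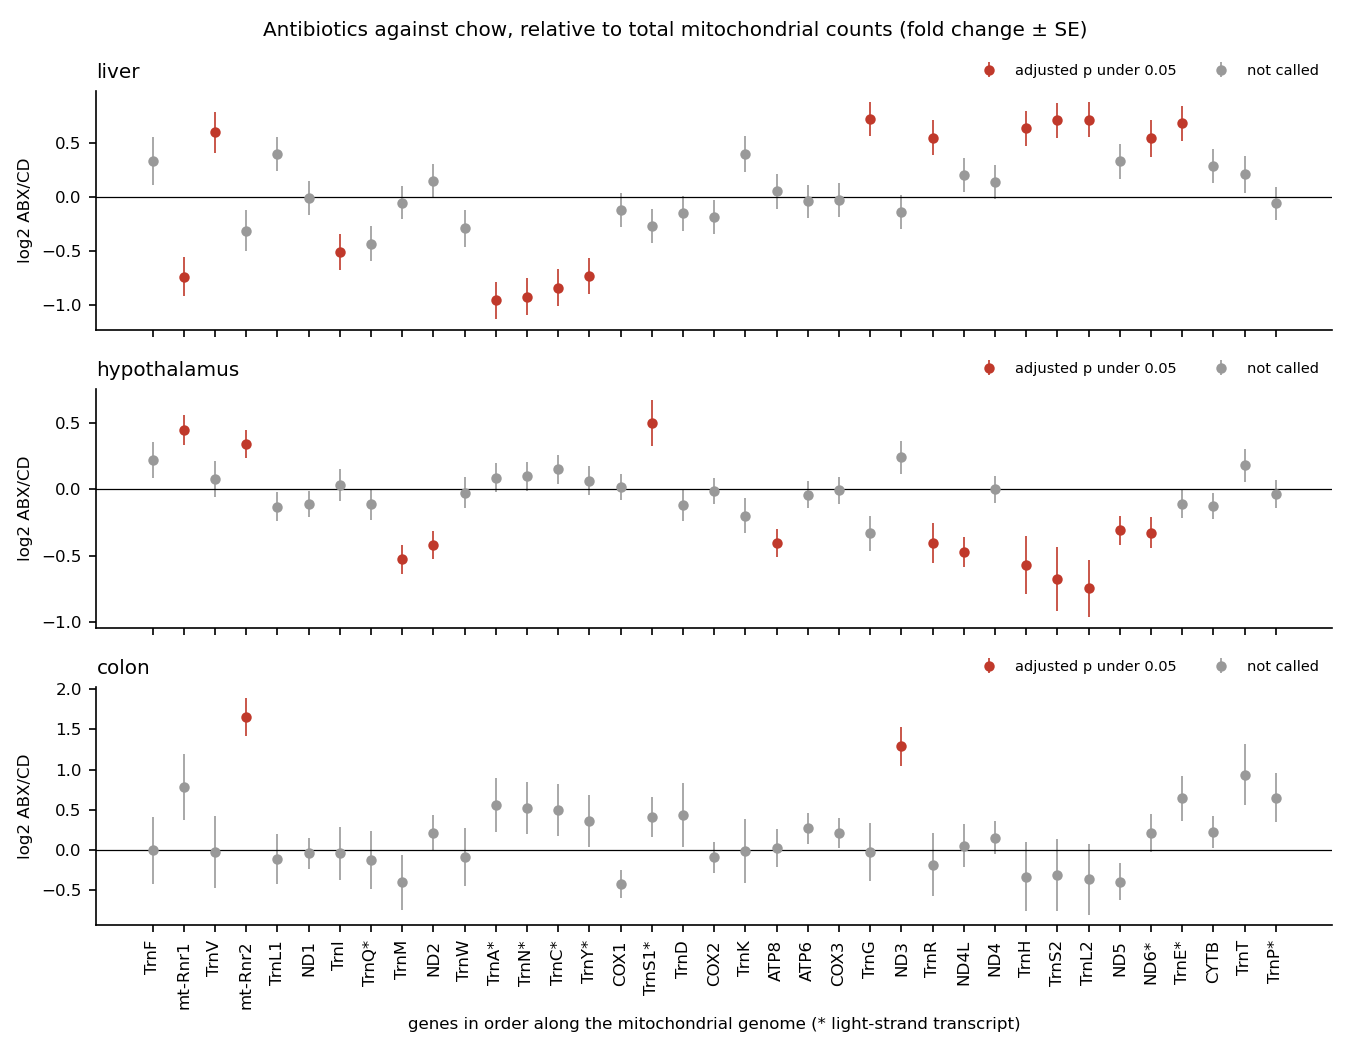
Log2 fold change of ABX over CD relative to total mitochondrial counts, with SE bars, for the 37 genes in genome order in liver, hypothalamus and colon, with an asterisk on light-strand members and red for an adjusted p under 0.05 (edgeR). In liver the block from TrnA to TrnY lies near -0.73 to -0.95 and TrnH, TrnS2 and TrnL2 lie above 0.6, while in hypothalamus the same TrnH, TrnS2 and TrnL2 lie below -0.5.

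In hypothalamus, 19 members were called lower in ABX and 0 higher, with a median log2 fold change of -0.46, against 14.2% of 24557 genes called (8.4% lower, 5.8% higher). Lower were 7 of 13 protein genes, 3 of 8 light-strand and 9 of 14 heavy-strand tRNAs. ND4L, a small membrane subunit of complex I, was at 267.5, 363.2 and 689 CPM (lowest, median, highest) in ABX and at 459.6, 612.1 and 1583 CPM in CD libraries, a fold change of -0.88 ± 0.15 (adjusted p = 0.000816, edgeR). ND2 (-0.85 ± 0.16, adjusted p = 0.00175) and ATP8 (-0.82 ± 0.16, adjusted p = 0.00192) were close to it.

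TrnL2 was at 0.763, 2.79 and 6.82 CPM in ABX and 1.44, 7.02 and 13.2 CPM in CD libraries (-1.15 ± 0.25, adjusted p = 0.00468, edgeR), the largest fall of a member, with TrnS2 next (-1.08 ± 0.27, adjusted p = 0.0105). The called members that moved least were TrnP (-0.46 ± 0.14, adjusted p = 0.0334) and TrnE (-0.51 ± 0.14, adjusted p = 0.0145). CYTB (-0.54 ± 0.15, adjusted p = 0.0175) and ND6 (-0.74 ± 0.16, adjusted p = 0.00394) were also called. COX1 (-0.40 ± 0.15, adjusted p = 0.0668), ND4 (-0.42 ± 0.16, adjusted p = 0.0733), mt-Rnr1 (-0.01 ± 0.19, adjusted p = 0.986) and mt-Rnr2 (-0.11 ± 0.18, adjusted p = 0.73) were not.

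On the balance scale 13 members were called in hypothalamus, 3 higher and 10 lower, where 32.8% of all genes were called (32.5% higher, 0.22% lower). mt-Rnr1 took 5.49%, 6.69% and 7.73% of mitochondrial counts (lowest, median, highest) in ABX and 3.63%, 4.82% and 6.30% in CD libraries. All 15 ABX libraries lay above the CD mean of their cycle and 13 above every CD library (0.45 ± 0.11, adjusted p = 0.0033, edgeR). mt-Rnr2 took 8.52%, 10.2% and 11.5% in ABX and 6.52%, 7.72% and 10.3% in CD libraries (0.34 ± 0.11, adjusted p = 0.0167, edgeR), also with 15 of 15 above. TrnS1 was the other member called higher (0.50 ± 0.17, adjusted p = 0.028).

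TrnM, the tRNA of methionine, did not overlap between the diets: it took 0.00985%, 0.0134% and 0.0162% in ABX and 0.0162%, 0.0200% and 0.0231% in CD libraries, the highest ABX library lying just below the lowest CD one. Its fold change was -0.53 ± 0.11 (adjusted p = 0.000833, edgeR). ND2, which follows TrnM in the genome, took 3.19%, 3.61% and 4.25% in ABX and 4.18%, 4.96% and 5.38% in CD libraries, with 14 of 15 ABX libraries below every CD library (-0.42 ± 0.10, adjusted p = 0.00332, edgeR). ND4L was at 0.431%, 0.542% and 0.764% in ABX and 0.637%, 0.767% and 0.892% in CD libraries (-0.47 ± 0.11, adjusted p = 0.00302), and ATP8 at 0.409%, 0.531% and 0.596% in ABX and 0.594%, 0.655% and 0.848% in CD libraries (-0.40 ± 0.11, adjusted p = 0.00622).

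TrnL2 (-0.74 ± 0.21, adjusted p = 0.00962, edgeR), TrnS2, TrnH and TrnR, higher in ABX livers, were lower in the ABX hypothalamus, as were ND5 and ND6. The TrnL2 share was 0.00158%, 0.00461% and 0.00948% in ABX and 0.00201%, 0.00923% and 0.0173% in CD libraries, with wide overlap and 12 of 15 ABX libraries below the CD mean of their cycle. The difference between the diet effects of liver and hypothalamus was not tested. One ABX library, LD16/8 replicate 3, held liver markers at a sum of 1540.6 CPM, against at most 24.2 CPM in the other hypothalamus libraries. Without it 14 members were called lower in level, and 10 were called in balance (3 higher, 7 lower). The balance count fell to 8 without CD LD0/24 replicate 2, CD LD8/16 replicate 1 or ABX LD12/12 replicate 2, and to 7 without the filter on low counts.

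In colon, 2 members were called in level by edgeR, mt-Rnr2 and ND3, both higher in ABX, against 5.37% of 23717 genes called (2.26% higher, 3.12% lower), and the median of the 37 was 0.01. With limma-voom 0 were called in level. The same 2 were the only members called in balance, against 2.24% of genes called (1.14% higher, 1.1% lower). mt-Rnr2 took 4.47%, 7.71% and 34.8% of mitochondrial counts (lowest, median, highest) in ABX and 1.81%, 2.90% and 4.94% in CD colons. All 15 ABX libraries lay above the CD mean of their cycle and 14 above every CD library. The log2 fold change was 1.66 ± 0.24 in balance (adjusted p = 4.72e-06, edgeR) and 1.81 ± 0.40 in level (adjusted p = 0.00662).

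ND3, a core membrane subunit of complex I, took 0.718%, 1.13% and 1.78% in ABX and 0.285%, 0.488% and 0.828% in CD colons, with 15 of 15 above the CD mean and 11 above every CD library. Its fold change was 1.29 ± 0.24 in balance (adjusted p = 0.000451, edgeR) and 1.34 ± 0.31 in level (adjusted p = 0.00927). mt-Rnr1 took 0%, 3.58% and 4.4% in ABX and 1.13%, 1.67% and 2.66% in CD colons. Of the ABX libraries 14 lay above the CD mean of their cycle, while the exception, LD8/16 replicate 1, held 0 counts of mt-Rnr1 and 34.8% of mt-Rnr2. With this library in the fit, the balance fold change of 0.79 ± 0.41 was not called (adjusted p = 0.607, edgeR). Without it 3 members were called in balance instead of 2, and the added member is not named here.

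COX1 took 22.7%, 36.4% and 43.5% in ABX and 42.1%, 49.1% and 53.0% in CD colons, with all 15 ABX libraries below the CD mean of their cycle and 14 below every CD library. Its fold change was not called (-0.42 ± 0.17, adjusted p = 0.283, edgeR), in a fit whose SE also draws on the spread of nuclear genes. CYTB (0.22 ± 0.20), ND4 (0.15 ± 0.21), ND6 (0.21 ± 0.24) and ATP8 (0.02 ± 0.24) were not called either. The sum of 3 colon and cecum markers, Slc26a3, Car1 and Muc2, was 192.5, 2852.5 and 16549.9 CPM in ABX and 1954.6, 17749.9 and 33861.4 CPM in CD colons. Smooth muscle markers were at 10.9, 10919.8 and 43370.0 CPM in ABX and 262.1, 12186.6 and 56293.6 CPM in CD colons. The part of such differences in tissue make-up in the result was not tested.

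**Figure D5:**
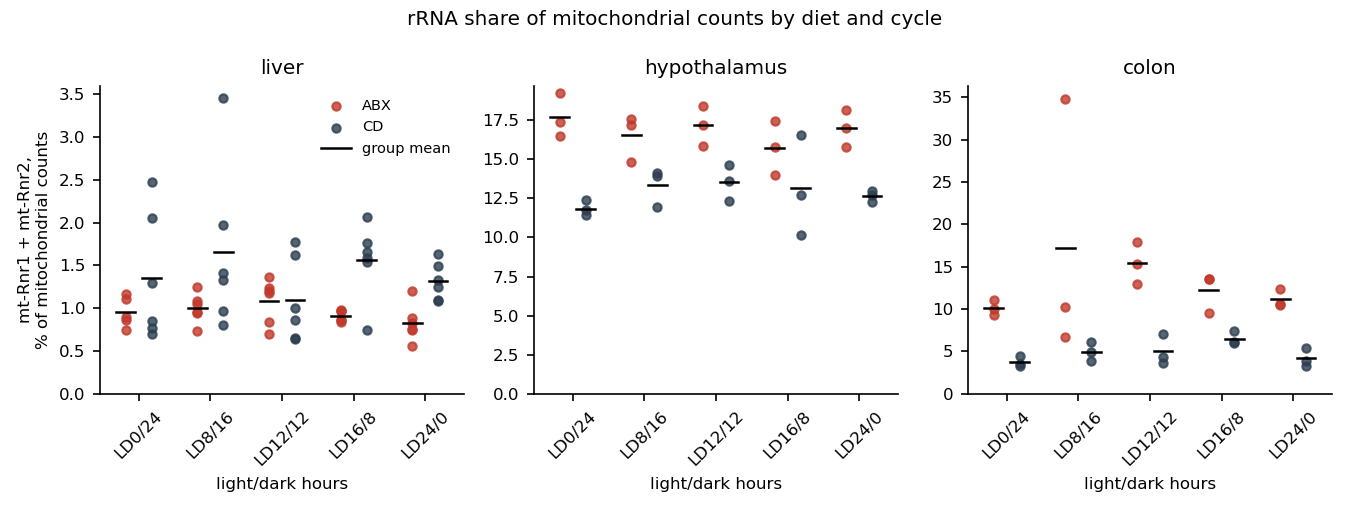
mt-Rnr1 and mt-Rnr2 together as a share of mitochondrial counts (%) by cycle, with ABX in red left of CD in blue, a point for each library and a line for the group mean. The ABX libraries lie mostly below CD in liver (medians 0.944% and 1.33%) and above CD in hypothalamus (17.2% and 12.7%) and colon (11% and 4.48%).

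The rRNA share put the diet difference of the 3 tissues side by side. It was 0.556%, 0.944% and 1.36% (lowest, median, highest) in ABX and 0.635%, 1.33% and 3.45% in CD livers, with 25 of 29 ABX livers below the CD mean of their cycle. In hypothalamus it was 14%, 17.2% and 19.2% in ABX and 10.1%, 12.7% and 16.6% in CD libraries, with 15 of 15 above. In colon it was 6.68%, 11% and 34.8% in ABX and 3.25%, 4.48% and 7.44% in CD libraries.

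The ratio of light-strand to heavy-strand tRNA counts also differed in direction between tissues. It was 5.05, 6.31 and 8.47 (lowest, median, highest) in ABX and 6.26, 9.06 and 14.1 in CD livers. In hypothalamus it was 3.47, 4.84 and 6.97 in ABX and 2.74, 3.4 and 5.28 in CD libraries, and in colon 13.4, 27.7 and 49.4 in ABX and 9.37, 18.2 and 26.4 in CD libraries. The diets overlapped in each tissue, and these ratios carry no test.

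The light cycle was compared next. Whether the cycle effect differed between diets was tested for 37 genes in 3 tissues, and edgeR called 0 of 111 in level (11 at an unadjusted p under 0.05) where 0.0052% of all liver genes and 0.0% of hypothalamus and colon genes were called. In balance it called 0 as well (4 at an unadjusted p under 0.05), where 0.0104% of liver, 0.0% of hypothalamus and 0.0169% of colon genes were called. DESeq2 called 2 in level. In ABX mice, the F test over the 5 cycles called 0 of 111 in level (2 at an unadjusted p under 0.05), where 0.265% of liver, 0.057% of hypothalamus and 0.186% of colon genes were called. DESeq2 called 13 there and limma-voom 1. In balance edgeR called 0 (4 at an unadjusted p under 0.05), where 0.166%, 0.0977% and 0.375% of the genes of these tissues were called.

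In CD mice the F test over the 5 cycles called 42 of 370 member tests in level, all in 2 of the 10 tissues, inguinal fat (7) and spleen (35), with 120 at an unadjusted p under 0.05. In balance it called 0, with 21 at an unadjusted p under 0.05, while DESeq2 called 78 and limma-voom 4. The shares of all genes called by DESeq2 and limma-voom are not given, here or above. Their member counts can therefore not be set against a background. The edgeR background of the balance test was 8.79% of genes in mammary gland, 1.83% in jejunum, 1.13% in inguinal fat, 0.802% in cecum, 0.411% in liver and 0.292% in spleen. It was 0.0314% in thymus, 0.0126% in colon, 0.00927% in ileum and 0.00407% in hypothalamus. Background shares of edgeR in level were 0.268% of genes in inguinal fat and 2.0% in spleen, 0.665% in liver, 0.0502% in mammary gland, 0.00978% in cecum, 0.00974% in jejunum and 0.0% in hypothalamus, ileum, colon and thymus. Each cycle was also set against LD12/12, in 52 contrasts and 1924 member tests over the tissues and diets. This gave 36 calls in level in 2 contrasts and 4 calls in balance in 1, with 439 and 43 at an unadjusted p under 0.05. Shares of all genes at an unadjusted p under 0.05 are not given in this text, so such counts have no background. Levels of the members also move together with a library's mitochondrial share, so their tests are not separate. In spleen, the contrasts share an LD12/12 group with 2 libraries of high mitochondrial share. The 439 are therefore no measure of a broad cycle effect.

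In inguinal fat the called members of the F test were TrnH (adjusted p = 0.012), TrnG (0.0123), TrnS2 (0.0131), TrnL2 (0.0162), TrnK (0.0165), TrnR (0.019) and TrnT, the tRNA of threonine (0.0452), all by edgeR. Set against LD12/12, 6 of them were higher in constant darkness, where 0.0334% of 20927 genes, 7 in all, were called. All 37 members had positive fold changes there, from 1.02 to 3.66 with a median of 1.79, and 30 had an unadjusted p under 0.05.

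TrnG was at 15.7, 26.8 and 49.3 CPM in the 3 LD0/24 libraries of inguinal fat, against 2.02, 1.83 and 3.41 CPM at LD12/12. The lowest LD0/24 library thus stood above the highest LD12/12 library by a wide gap, and above all libraries of the other cycles, which ran from 2.90 to 12.3 CPM. The log2 fold change was 3.66 ± 0.50 (SE; adjusted p = 0.0109, edgeR).

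TrnH was at 11.9, 16.7 and 27.3 CPM at LD0/24 and 1.15, 1.13 and 2.46 CPM at LD12/12, a fold change of 3.56 ± 0.44 (adjusted p = 0.00682, edgeR). TrnS2 was at 11.9, 17.9 and 28.9 CPM at LD0/24 and 1.02, 1.18 and 2.51 CPM at LD12/12 (3.64, adjusted p = 0.0109). TrnL2 was at 13.2, 20.9 and 32.8 CPM at LD0/24 and 1.13, 1.54 and 3.09 CPM at LD12/12 (3.53, adjusted p = 0.0109). These 3 adjacent tRNAs thus had close levels in each library and separated the cycles in the same way.

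TrnR was at 7.10, 10.8 and 21.1 CPM at LD0/24 and 0.891, 0.744 and 1.54 CPM at LD12/12 (3.62, adjusted p = 0.0207, edgeR). TrnK, beside ATP8, was at 3.05, 5.44 and 7.39 CPM at LD0/24 and 0.391, 0.299 and 0.675 CPM at LD12/12 (3.54, adjusted p = 0.0305). TrnT was at 1.32, 4.65 and 5.92 CPM at LD0/24 and 0.293, 0.272 and 0.570 CPM at LD12/12, and was called by the F test alone. COX1 was at 37618, 105939 and 79170 CPM at LD0/24 and 19559, 17954 and 38245 CPM at LD12/12, so for this message the groups overlapped slightly.

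Relative to the summed mitochondrial counts, 4 members were called higher at LD0/24 in inguinal fat: TrnS2 (2.07 ± 0.69, adjusted p = 0.0483, edgeR), TrnH (2.00, 0.0487), TrnG (1.98 ± 0.66, 0.0483) and TrnL2 (1.95, 0.049). Of all genes 14.0% were called, 0.0287% higher. The TrnG share of mitochondrial counts was 0.0150%, 0.00848% and 0.0170% at LD0/24 and 0.00350%, 0.00371% and 0.00306% at LD12/12. All genes of the table had a median of -1.52 on this scale. The adjusted p-values of the 4 members thus also depend on the many nuclear genes called lower.

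These inguinal fat calls rest on few libraries. Without LD12/12 replicate 1 or replicate 2 no member was called in level in this contrast, without LD0/24 replicate 3 only 1, and leaving out any other library left 4 to 7. In balance no member was called when LD0/24 replicate 2 or 3 or LD12/12 replicate 1 or 2 was left out. White fat markers summed to 19597.9, 13432.5 and 13566.6 CPM at LD0/24 and 17468.4, 20403.8 and 27499.2 CPM at LD12/12, and the part of this in the result was not tested. At the other cycles the median fold change of the 37 against LD12/12 was 1.18 (LD8/16), 0.43 (LD16/8) and 1.01 (LD24/0), with 0 called by edgeR, 11, 3 and 14 at an unadjusted p under 0.05, and 0.00478% of genes called in each. With the older quasi-likelihood version or limma-voom the F test called 0 members in inguinal fat, and with DESeq2 19.

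In spleen, 30 members were called lower at LD0/24 than at LD12/12, with a median log2 fold change of -4.45, against 5.56% of 21938 genes called (3.82% lower, 1.75% higher). The values split within LD12/12: COX1 was at 9639, 9132 and 6096 CPM at LD0/24, and at 19851, 297075 and 258755 CPM at LD12/12, replicates 2 and 3 being the 2 libraries with high shares. At LD8/16 it was at 17125, 14721 and 15258 CPM, at LD16/8 at 12675, 13989 and 16117 CPM and at LD24/0 at 28215, 19775 and 16191 CPM. LD12/12 replicate 1 therefore lay among the libraries of the other cycles.

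The fold change of COX1 at LD0/24 was -4.53 ± 0.69 (adjusted p = 0.0329, edgeR). ND4L fell most, with 46.8, 34.1 and 20.6 CPM at LD0/24 and 314, 3919 and 2667 CPM at LD12/12 (-6.09 ± 0.77, adjusted p = 0.0329). TrnV had the smallest fold change (-2.01, adjusted p = 0.242, not called) and was near 0 in most of these libraries. The other 3 cycles against LD12/12 had 0 calls by edgeR, with all 37 at an unadjusted p under 0.05 in each and 0.0% of genes called.

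Without LD12/12 replicate 3 the F test called 0 members in spleen (edgeR), without replicate 2 it called 10 and without replicate 1 it called 37. It called 0 with limma-voom and 12 with the older quasi-likelihood version. The LD0/24 contrast had no call left when any LD0/24 library, LD8/16 replicate 1, LD12/12 replicate 2 or 3, LD16/8 replicate 1 or 2 or LD24/0 replicate 2 was left out, and 4 without LD24/0 replicate 1 or 3. In the 2 libraries, B cell markers summed to 87.8 and 102 CPM, against 1957 CPM in replicate 1, and red blood cell genes to 106108 and 99236 CPM. LD16/8 replicate 3 had red blood cell genes at 120867 CPM and B cell markers at 295 CPM with a low mitochondrial share. The part of these cell types in the result was not tested. In balance the F test called 0 members in spleen by edgeR, with 5 at an unadjusted p under 0.05.

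Nuclear genes that serve the same machinery were counted from fixed lists. Of 75 measured nuclear genes of complexes I to V, 16 were called lower and 0 higher in ABX livers, with a median log2 fold change of -0.05. This share lies near the background of 18.4% of all liver genes called lower. Without the 5 high CD livers only 4 were lower, where 17.4% of genes were called lower. Complex I gave 13 of the 16, and without the 5 high CD livers 3 of its 37 measured genes were called lower. Among the 13 were Ndufs8 (-0.49 ± 0.12, adjusted p = 0.000954, edgeR, and 0.0577 without the 5) and Ndufa10 (-0.32 ± 0.07, adjusted p = 0.000156). In the ABX hypothalamus 5 were higher, such as Ndufa7 (0.29 ± 0.07, adjusted p = 0.0117) and Ndufa11 (0.34 ± 0.10, adjusted p = 0.0301), and 1 was lower, Uqcrc2 (-0.18 ± 0.04, adjusted p = 0.0105), a share near the background of 5.8% of genes higher there. In the ABX colon only Atp5e was called (0.94 ± 0.22, adjusted p = 0.0101).

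Among 19 mitochondrial aminoacyl-tRNA synthetases, which charge the tRNAs, 2 were higher and 5 lower in ABX livers, where 14.8% of all liver genes were higher and 18.4% lower. The smallest p was that of Tars2 for threonine (-0.45 ± 0.07, adjusted p = 2.18e-07, edgeR). In hypothalamus, against 5.8% of genes higher and 8.4% lower, 1 was higher and 3 lower, among them Mars2 for methionine (-0.33 ± 0.09, adjusted p = 0.0189, edgeR). In colon Gars was lower (-0.76 ± 0.15, adjusted p = 0.00129) and Lars2, the synthetase of the leucine tRNAs, higher (2.84 ± 0.66, adjusted p = 0.0103). Without ABX LD8/16 replicate 1, in which Lars2 took 17.9% of all counts, its fold change was 1.12 ± 0.40 and was not called (adjusted p = 0.0985, edgeR).

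Of 22 genes for processing and stability of mitochondrial RNA, 4 were higher and 3 lower in ABX livers, again near the shares of all liver genes, and without the 5 high CD livers 2 were higher and 4 lower. Those with the smallest p were Trnt1, which adds the CCA end to tRNAs (0.40 ± 0.09, adjusted p = 0.000408, edgeR), and Trmt10c, a subunit of mitochondrial RNase P, which cuts the 5′ ends of tRNAs (0.47 ± 0.13, adjusted p = 0.0034). In hypothalamus 0 were higher and 2 lower, a share near that of all genes called lower there. The 2 were Lrpprc, which stabilises mitochondrial messages (-0.21 ± 0.06, adjusted p = 0.0179, edgeR), and Trmt10c (-0.23 ± 0.06, adjusted p = 0.0179). In colon edgeR called 0 (2 at an unadjusted p under 0.05), and 2, both higher, without ABX LD8/16 replicate 1.

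Of 16 genes for transcription and replication of mitochondrial DNA, 3 were higher and 3 lower in ABX livers, also near the shares of all genes, such as Tfam, which packages mitochondrial DNA and starts its transcription (0.27 ± 0.07, adjusted p = 0.00311, edgeR), and Top1mt, a topoisomerase (-0.38 ± 0.07, adjusted p = 3.82e-05). In hypothalamus 3 were lower, among them the elongation factor Tefm (-0.24 ± 0.06, adjusted p = 0.0132, edgeR). The share of all hypothalamus genes called lower is given above with the synthetases. Of 6 regulators of mitochondrial biogenesis, Gabpa (0.49 ± 0.09, adjusted p = 1.21e-05, edgeR) and Ppargc1a (0.40 ± 0.13, adjusted p = 0.0132) were higher in ABX livers. Without the 5 high CD livers 2 of the 6 were higher, where 20.7% of all genes were called higher. In inguinal fat, LD0/24 against LD12/12, edgeR called 0 of 37 nuclear complex I genes (7 at an unadjusted p under 0.05), 0 of the 19 synthetases (4) and 0 of the 22 processing genes (4).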

How the data were processed

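The 228 libraries hold RNA of 10 tissues, isolated with TRIzol and prepared with a SMARTER mRNA kit according to the labels' protocols. The submitters' processing notes name GRCm39 as the build, with StringTie 2.2.1, HISAT2 2.1.0 and SAMtools 1.10 as tools. The deposited values are whole numbers and were treated as estimated counts made by the authors. Values of 4 and its multiples were in surplus (146169 cells held 4, 86362 held 3 and 66707 held 5), and each test was also run after division by 4. Rows naming no gene (2, at most 0.114% of a library) were left out. The sources used here give no strand, sex, sampling hour or batch. They also do not say that a group's libraries stem from separate mice, and p-values then measure only the spread between these libraries. In balance, the p-values of members also take in the spread of nuclear genes on that scale, and the adjusted ones the number of nuclear genes called.

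The 37 members were matched by gene name. Lengths, gene order and tRNA sequences came from the GENCODE annotation of GRCm38, a build other than that of the files, so no coordinates are given. Near-identical nuclear copies were sought with BLAST 2.17.0.

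Each tissue was fitted with edgeR 4.0.16 in R 4.3.3 (robust quasi-likelihood, filterByExpr, 1 mean for each diet and cycle). Library sizes were TMM-scaled for levels and the summed counts of the 37 members for balance. Two-sided p-values were Benjamini-Hochberg adjusted over the whole table of a tissue, with a threshold of 0.05. SE was taken as log2 fold change over root F, without sign. Levels in the text are CPM on the TMM scale, and marker sums are CPM of nuclear counts. Shares, ratios and ranges are descriptions without a test. Simulated data took 1 mean profile and 1 spread for all libraries of a tissue, and only nuclear genes were changed. There the level steps recovered 100 of 100 genes changed 2-fold in liver, 98 in hypothalamus and 99 in colon for ABX against CD, and 16 for a cycle in spleen. False calls numbered 18 in liver, 11 in hypothalamus, 16 in colon and 5 in spleen. No member was changed and the balance steps were not run, so this recovery does not give the power for the members.

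The members, gene lists and tests were chosen with earlier results of these data known. Values are shown for mt-Rnr1, mt-Rnr2, COX1, ND4, ND6, ATP8 and CYTB, for each member called in a comparison with at most 10 calls and for the most and least changed in larger ones; other genes named were chosen after their values were seen. Alternatives were RLE size factors, scaling by nuclear genes, no filter, the older quasi-likelihood version, values divided by 4, all libraries kept, DESeq2 1.42.0, a replicate block, library size from the 13 protein genes and leaving out 1 library at a time; added after seeing the data were leaving out the 16 libraries that stood apart and limma-voom (limma 3.58.1).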

Additional observations from a re-analysis of the deposited data

Results flagged for a closer look

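In the liver groups, the only ones with 4 or more libraries, the share of counts on the 37 genes and the rRNA share were examined for a single library far outside its group. Of these 20 tests 4 found one, all for the share of counts, where chance gives about 1 in 20. Among CD livers these were LD8/16 replicate 3 at 40.9% (next library 5.75%), LD12/12 replicate 2 at 62.6% (next 5.56%) and LD24/0 replicate 5 at 48.2% (next 6.30%). Among ABX livers it was LD16/8 replicate 6 at 7.11% (next 6.08%). The CD LD0/24 group held 2 high libraries, at 30.4% and 58.3%, and such a pair is not marked by a test of 1 library. The liver comparison is given in the text with and without the 5 high CD libraries.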

How the results depend on the processing

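Level calls in liver (31, all lower in ABX) became 21 (16 higher, 5 lower) without the libraries that stood apart and 5 with limma-voom. Without them the log2 fold change was 0.023 for mt-Rnr2, 0.035 for COX1, 0.34 for ND4, 0.71 for ND6, 0.17 for ATP8, 0.46 for CYTB and 0.76 for TrnR, and limma-voom gave 0.015 for ND6 and 0.29 for TrnR. Colon level calls (2) became 0 with limma-voom and ran from 2 to 3 when 1 library was left out; hypothalamus calls (19) ran from 14 to 24. DESeq2 called more throughout: 2 for the interaction, 13 for ABX cycles (limma-voom 1), and for CD cycles 10 in liver, 11 in hypothalamus, 19 in inguinal fat, 8 in ileum, 16 in colon, 25 in jejunum, 9 in cecum, 9 in mammary gland (limma-voom 2) and 3 in thymus. Apart from the liver shares in the text, shares of all genes called under these alternatives are not given. The counts then show only how far the calls moved. Without the libraries that stood apart, CD cycles gave 6 in liver and 0 in spleen. The older quasi-likelihood version gave 0 in inguinal fat and 12 in spleen, and limma-voom gave 0 in both. Leaving out 1 library gave 0 to 7 calls in inguinal fat and 0 to 37 in spleen, and 0 for the interaction, ABX cycles and CD cycles in the other tissues tested so. The 36 calls of cycles against LD12/12 became 5 with the older version, 211 with DESeq2, 8 without the libraries that stood apart, 7 with limma-voom (4 higher, 3 lower) and 6 to 154 when 1 library was left out: 154 without spleen LD12/12 replicate 1, 10 without spleen LD24/0 replicate 1 or 3, and 6 without the spleen libraries named in the text.

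In balance, the liver calls (14) became 4 without a filter on low counts, all lower, 23 with DESeq2 and 26 without the libraries that stood apart. Hypothalamus calls (13) became 7 without the filter and ran from 8 to 14 when 1 library was left out, with 8 without CD LD0/24 replicate 2, CD LD8/16 replicate 1 or ABX LD12/12 replicate 2. Colon calls (2) became 5 with DESeq2 or limma-voom and ran from 2 to 3, with 3 without ABX LD8/16 replicate 1. CD cycles (0) gave 3 without the filter, 78 with DESeq2, 17 without the libraries that stood apart, 4 with limma-voom and 0 to 26 when 1 library was left out, with 26 without spleen LD12/12 replicate 1. The 4 calls of cycles against LD12/12 became 0 without the filter or with the older version, 12 with limma-voom (5 higher, 7 lower) and 0 to 54 when 1 library was left out, with 54 (11 higher, 43 lower) without spleen LD12/12 replicate 1 and 7 without jejunum LD12/12 replicate 3. Of the other results, 136 under planned settings and 11 under added ones stayed within 1.5 times or the spread between libraries. The causes were not tested, and liver, with 6 libraries in most groups, was not run with 1 library left out.

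The main fits did not pair libraries by replicate number. The mean correlation of same-numbered deviations was -0.0652 to 0.192 over the tissues, with a negative lowest pair in each. In jejunum it was 0.192, against -0.0971 for other numbers, and 11 of 15 libraries correlated best with their own number. In spleen it was 0.178 against -0.0856, with 9 of 15, but only 3 of 15 did so in cecum and 1 of 15 in thymus. A shared origin of same-numbered libraries was not tested. With a replicate block the CD cycle test called 0 members in spleen and 5 in inguinal fat in level and 5 over the 10 tissues in balance, and cycles against LD12/12 gave 26 calls in level and 0 in balance.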

Other observations

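Lars2, a nuclear gene and no member of the set, had single libraries far above the rest in several tissues. Its level had a median of 512.6 CPM of all counts in ABX colons (lowest 165.4) and of 199.1 CPM in CD colons (45 to 1678), and it took 17.9% of all counts in ABX colon LD8/16 replicate 1, the library with 0 counts of mt-Rnr1. The median was 149.4 CPM in ABX livers and 88.1 CPM in CD livers. In tissues of chow mice only, the highest library held 7190 CPM in spleen, 5413 in mammary gland, 4827 in cecum and 4312 in jejunum, and 237.4 in thymus.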
